A study of Mus musculus with 22 samples.

Results

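The 9 genes described here encode the core transcription factors of the pancreatic islet: Pdx1, Nkx6-1, Nkx2-2, Neurod1, Isl1, Pax6, Foxa2, Hnf4a and Rfx6. They were taken by symbol from a table of 56860 genes, each of the 9 stood on 1 row, and all 9 passed the filter on low values that left 16749 genes to test. RNA with poly(A) tails was measured in islets of 22 male mice, 1 mouse per library, aged 5.5 weeks by the series design and 5 to 6 weeks by the column names. The C57 background supplied 5 wild-type (WT) and 6 heterozygous (Het) mice, and a background that the labels call Mixed supplied another 5 WT and 6 Het mice. Het mice carry the S64F change in MAFA, a transcription factor of beta cells, and no other allele or agent is named for any group. The labels name no driver that would restrict the change to 1 cell type, and they do not say which strains make up the Mixed background. Library numbers ran through the groups one after another, so library order and group cannot be told apart.

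Islet transcription factors act as an interlocking network, in which most members bind the regulatory regions of the others and of hormone genes. Pdx1 and Nkx6-1 are largely restricted to insulin-producing beta cells in adult mouse islets (Pdx1 also occurs in somatostatin-producing delta cells), while Pax6, Isl1, Neurod1, Nkx2-2, Rfx6 and Foxa2 are found across the endocrine cell types. MAFA works beside Pdx1 and Neurod1 on the insulin gene promoter, and it binds DNA through elements whose core is known as the MAF half-site.

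The sequence just before the annotated start of 4 of these genes is given here, Pax6 and Rfx6 because their transcripts were lower in Het islets on both backgrounds, and Nkx6-1 and Neurod1 because their windows hold MAF half-sites. The sequences are the 250 bases before the start, from RefSeq on GRCm38.p6, and capitals mark a match to TGCTGA on either strand. The positions are Nkx6-1 chr5:101664712-101664961 (minus strand), Neurod1 chr2:79456637-79456886 (minus), the first of the Pax6 starts at chr2:105668646-105668895 (plus) and Rfx6 chr10:51685268-51685517 (plus).
Nkx6-1: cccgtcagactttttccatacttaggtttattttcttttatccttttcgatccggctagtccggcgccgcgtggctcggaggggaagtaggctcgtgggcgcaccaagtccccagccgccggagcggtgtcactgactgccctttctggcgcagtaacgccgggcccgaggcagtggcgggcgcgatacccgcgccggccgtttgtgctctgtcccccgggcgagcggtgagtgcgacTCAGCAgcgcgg
Neurod1: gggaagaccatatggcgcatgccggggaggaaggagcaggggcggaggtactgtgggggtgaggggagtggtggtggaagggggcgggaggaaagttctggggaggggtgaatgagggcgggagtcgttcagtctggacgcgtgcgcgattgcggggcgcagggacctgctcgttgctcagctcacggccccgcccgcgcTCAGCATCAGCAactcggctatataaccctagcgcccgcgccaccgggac
Pax6: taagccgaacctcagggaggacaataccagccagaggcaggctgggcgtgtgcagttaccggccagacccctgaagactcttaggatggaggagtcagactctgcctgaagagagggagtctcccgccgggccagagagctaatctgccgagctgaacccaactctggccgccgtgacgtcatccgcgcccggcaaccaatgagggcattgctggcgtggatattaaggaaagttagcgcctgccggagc
Rfx6: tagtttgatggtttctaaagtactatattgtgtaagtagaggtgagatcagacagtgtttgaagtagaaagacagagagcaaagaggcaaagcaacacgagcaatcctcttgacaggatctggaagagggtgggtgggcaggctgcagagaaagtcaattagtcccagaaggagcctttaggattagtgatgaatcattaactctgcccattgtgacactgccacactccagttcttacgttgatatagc

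The 9 genes had 13 such windows between them, and 5 of the 9 genes lie on chromosome 2. The Nkx6-1 window holds 1 half-site, 12 to 7 bases before the start, read as TCAGCA. The Neurod1 window holds 2 half-sites in direct succession, at 50 to 45 and 44 to 39 bases before the start. The third gene with a half-site was Foxa2, at the second of its listed starts, 45 to 40 bases before it (chr2:148045976-148046005, minus strand, GRCm38.p6), shown because Foxa2 was called higher where the other called factors were lower.
Foxa2: ggacggtaccatTGCTGActttttttttta

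TGCTGA or its reverse complement TCAGCA was present in 3 of the 13 windows and in 16.1% of 32851 windows of the same length from all genes. The E-box CAGATG, the kind of element that Neurod1 binds, was found in the Nkx2-2 window only, against 14.4% of all windows. The homeodomain core TAATTA was found at the second Hnf4a start only, against 4.84%, and the forkhead core TGTTTAC in 0 of 13 windows, against 3.17%. All motifs were searched on both strands. A match describes letters and not a bound site, and distal enhancers, where much of the control of these genes is known to lie, were not examined.

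Expression is given in TPM, a unit corrected for transcript length and scaled to the same total in every library, which allows levels of different genes to be compared. Nkx6-1, which keeps beta cells from taking on alpha cell features, had the highest TPM of the 9 in every group, with 494 ± 30.7 (SD, n = 5) in C57 WT, 432 ± 39.9 (n = 6) in C57 Het, 496 ± 70.1 (n = 5) in Mixed WT and 359.8 ± 35.9 (n = 6) in Mixed Het. Neurod1, a basic helix-loop-helix activator of the insulin gene, came second with group means of 205.5 to 244.5 TPM. Hnf4a, a nuclear receptor whose loss causes a monogenic diabetes in people, was lowest throughout, at 13.75 to 15.85 TPM. Between them stood Isl1, Pdx1, Rfx6, Nkx2-2, Pax6 and Foxa2, at 47.2 to 151 TPM, and most neighbours in that order had overlapping ranges. In C57 WT only 1 of the 5 steps among these 6 genes was free of overlap, between Nkx2-2 and Pax6. In Mixed WT the free step was between Pax6 and Foxa2, and in both Het groups Foxa2 had the higher mean of the pair. The summed TPM of the 9 genes was 1451 ± 75.3 in C57 WT, 1272 ± 94.0 in C57 Het, 1415 ± 136 in Mixed WT and 1141 ± 113 in Mixed Het.

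**Figure D1:**
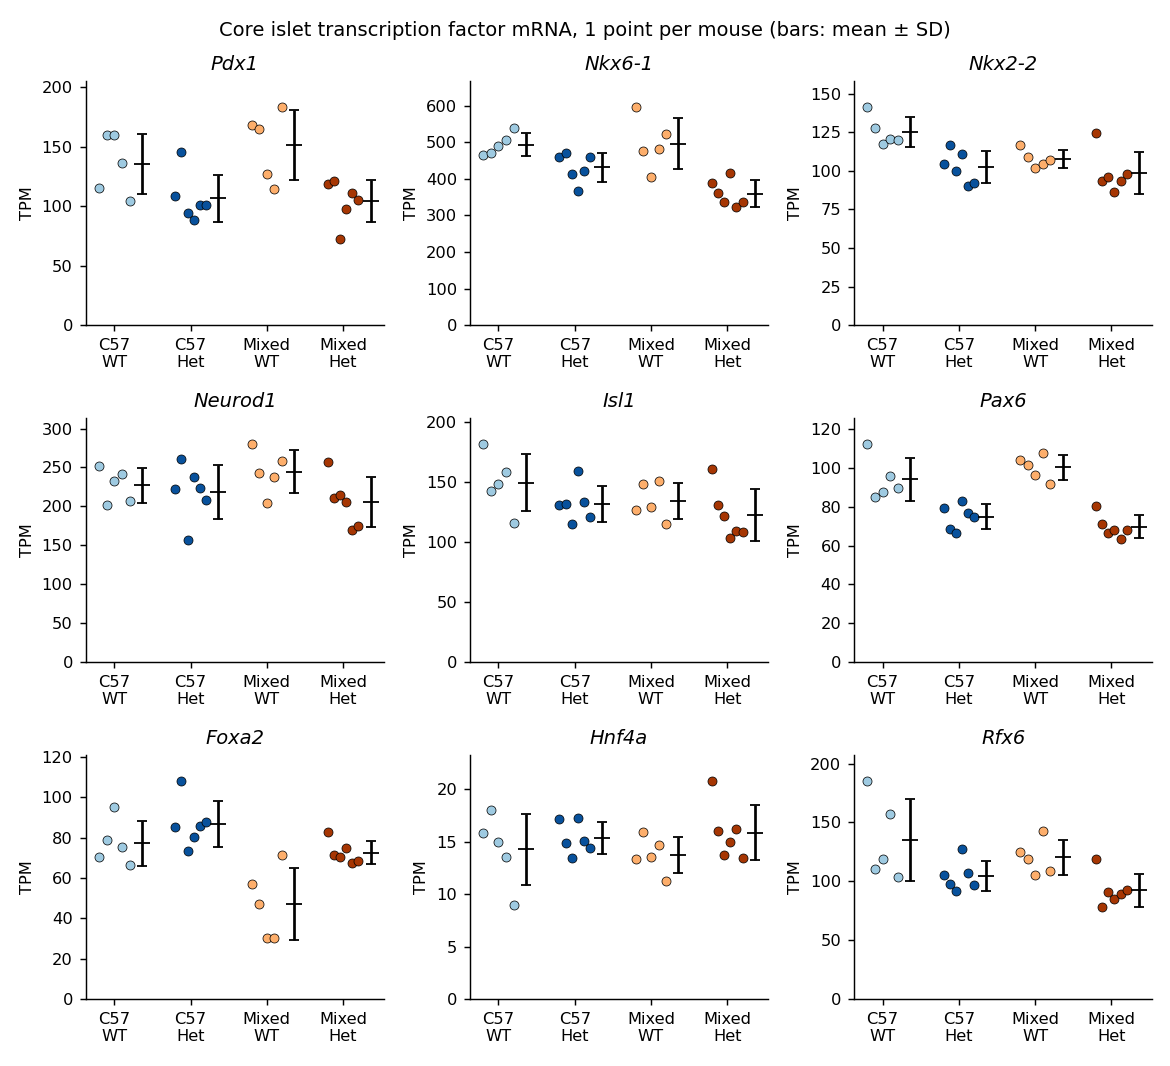
Each panel plots 1 core factor in TPM on an axis from 0, with 1 point per mouse in the 4 groups and the mean ± SD beside the points. All 6 Het points of Pax6 lie below all 5 WT points on both backgrounds, and the Mixed WT points of Foxa2 spread from 30.1 to 71.2 TPM.

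The comparison of Het with WT asked how the S64F change moved these transcripts on each background. On C57, Pax6, Nkx2-2 and Rfx6 were lower in Het islets, to 79.6%, 81.6% and 77.3% of the WT mean, and 0 of the 9 were higher. On Mixed, Pax6, Pdx1, Nkx6-1 and Rfx6 were lower, to 69.4%, 68.9%, 72.55% and 76.8% of WT, and Foxa2 was higher, at 153% of WT. Isl1 and Hnf4a passed the test on neither background, and neither did Neurod1. The 3 of 9 genes that passed on C57 stand against 38% of all genes tested, and the 5 of 9 on Mixed against 44.1%. For TPM as deposited, the share of core factors that changed was thus near the background. The direction differed from that of all genes: 3 of 9 were lower on C57 against 11.6% of all genes, and 4 of 9 on Mixed against 13.5%. In the other direction, 0 of 9 were higher on C57 against 26.4%, and 1 of 9 on Mixed against 30.7%. The median log2 difference of the 9 was -0.20 on C57 and -0.26 on Mixed, beside 0.08 and 0.10 over all genes tested. Every adjusted p-value below is from limma, fitted to log2(TPM + 1) of all 22 mice with Benjamini-Hochberg adjustment over all genes tested, and called means an adjusted p under 0.05.

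Each TPM value is a share of its library, and the share taken by the insulin genes Ins1 and Ins2 differed between groups, from 34.6% to 41.7% of TPM in C57 WT, 28.5% to 34.5% in C57 Het, 36.4% to 44.2% in Mixed WT and 21.5% to 30.8% in Mixed Het. With median-of-ratios scaling, which sets the typical gene equal between libraries, the median log2 difference of all genes shifted by -0.10 on C57 and by -0.11 on Mixed. Of all genes called, 69.5% were higher in Het as deposited on each background, and 50% (C57) and 49.4% (Mixed) after this scaling. The core factors called then numbered 6 on C57, all lower, and 8 on Mixed, with 7 lower and Foxa2 higher. Of all genes, this scaling called 39.4% on C57 (19.7% lower and 19.7% higher) and 44.2% on Mixed (22.4% lower and 21.9% higher). The core factor share was then above that of all genes on both backgrounds, so the nearness seen as deposited did not hold. In bulk islets, fewer cells of a type and less RNA per cell cannot be told apart. The summed TPM of 6 alpha cell markers (Gcg and others) ranged over 19130 to 57540 in C57 WT, 71560 to 117600 in C57 Het, 15890 to 27620 in Mixed WT and 65620 to 107600 in Mixed Het, and all 6 rose on both backgrounds. The summed TPM of 4 delta cell markers ranged over 5539 to 8889, 10010 to 13920, 7647 to 15970 and 14670 to 32010 in the same order, with all 4 called higher on both backgrounds. The summed TPM of 5 beta cell markers ranged over 367800 to 447500, 321300 to 375500, 397900 to 474600 and 247200 to 339100. Most of that sum is Ins1 and Ins2, so it largely repeats the insulin share, and 1 of the 5 beta cell markers was called lower on C57 (Ins1) and 3 on Mixed (Ins1, Ucn3 and Slc2a2). On Mixed, 5 of 6 ductal, 7 of 7 immune, 5 of 7 mesenchymal, 4 of 6 Schwann and 0 of 6 endothelial markers that passed the filter were called higher in Het, and 1 ductal marker lower. On C57, 2 of 6 ductal markers were called higher, and 2 of 7 immune, 1 of 7 mesenchymal and 3 of 6 endothelial markers lower, with 0 of 6 Schwann markers called. The largest of these 5 sums was 754 TPM in any mouse, and no marker of any list was at 0 in all mice. These marker calls are for TPM as deposited. After median-of-ratios scaling, 2 ductal, 6 immune, 5 mesenchymal, 3 Schwann and 0 endothelial markers were called higher on Mixed. On C57 the Ins1 call was then lost and 1 other beta cell marker was called lower. All 6 alpha and all 4 delta cell markers stayed called higher on both backgrounds. The part of these shifts in the core factor results was not tested.

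**Figure D2:**
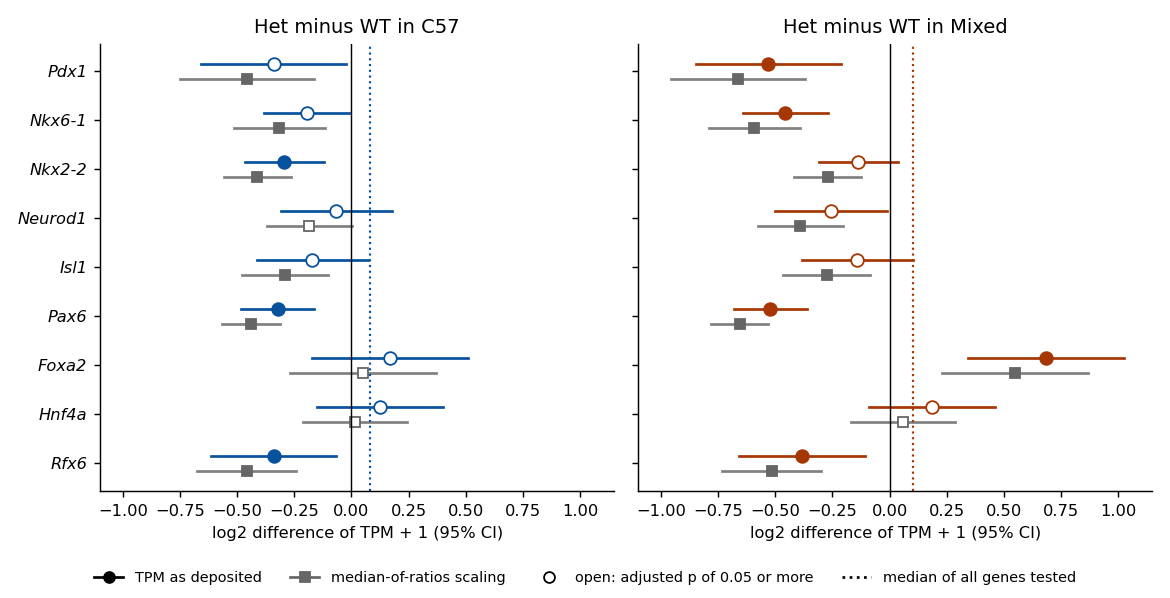
Points are log2 differences of TPM + 1, Het minus WT, with 95% confidence intervals, for the 9 core factors on C57 (left) and Mixed (right); circles are TPM as deposited, squares the same fit after median-of-ratios scaling, filled marks have an adjusted p under 0.05, and dotted lines mark the median of all genes tested. Pax6 and Rfx6 are filled on both sides, and Foxa2 is the factor called to the right of 0 on Mixed.

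The beta cell factors are described first. Pdx1, a homeodomain protein needed to form the pancreas and to keep insulin transcription going in the adult, was at 115, 160.1, 159.5, 137 and 104 TPM in the 5 C57 WT mice, and from 88.6 to 145 (median 101) in the 6 C57 Het mice. In Mixed WT mice it was 168, 165, 127, 114 and 183 TPM, and from 72.7 to 121 (median 108) in Mixed Het. The ranges overlapped on both backgrounds, with 1 C57 Het mouse at 145 TPM well above the other 5. On Mixed the log2 difference was -0.53 (SE 0.15, adjusted p = 0.00767, exact permutation p = 0.00866 over 462 splits). On C57 it was -0.34 (SE 0.15, adjusted p = 0.0831, exact permutation p = 0.0606) and did not pass. It passed there after median-of-ratios scaling (-0.46, adjusted p = 0.0145), and also without that Het mouse (-0.43, adjusted p = 0.0292) or without C57 WT mouse 5 (-0.43, adjusted p = 0.0439). In the other 20 of the 22 fits that left out 1 mouse it did not pass, with a limma adjusted p up to 0.187.

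Nkx6-1 was at 464, 469.6, 489, 506 and 540.1 TPM in C57 WT and from 366 to 471 (median 440.4) in C57 Het. The Mixed WT mice were at 596, 475, 405, 481 and 523 TPM, and the Mixed Het mice from 322 to 416 (median 349). On Mixed, all but the highest Het mouse lay below the lowest WT mouse. The log2 difference was -0.46 (SE 0.09, adjusted p = 0.00034, exact permutation p = 0.00649) on Mixed and -0.20 (SE 0.09, adjusted p = 0.0893) on C57. After median-of-ratios scaling the C57 difference was -0.31 with an adjusted p of 0.0129. Nkx6-1 was the 1 core factor that differed between the Het groups, lower in Mixed Het than in C57 Het (-0.26, SE 0.09, adjusted p = 0.0327).

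Among the islet-wide factors Pax6, a paired-domain protein needed for both insulin and glucagon transcription, had the smallest spread between mice of a group. Its pooled SD was 0.12 on the log2 scale. The median was 0.20 over all genes and 0.17 over genes with a mean TPM of at least 10. Pax6 was at 112, 84.8, 87.5, 95.8 and 89.8 TPM in C57 WT and from 66.4 to 83.1 (median 75.7) in C57 Het. The 5 Mixed WT mice were at 104, 101.5, 96.2, 107 and 91.6 TPM, and in Mixed Het from 63.3 to 80.5 (median 67.9). All 6 Het mice lay below all 5 WT mice on both backgrounds, an order that 5.05% of all genes showed on C57 and 5.76% on Mixed in this direction. The log2 difference was -0.32 (SE 0.08, adjusted p = 0.00261, exact permutation p = 0.00433) on C57. On Mixed it was -0.52 (SE 0.08, adjusted p = 1.51e-05), and its exact permutation p of 0.00216 is the smallest that 462 splits can give. Pax6 passed in both genotype contrasts under each of the 12 alternatives other than leaving out a mouse, and without each mouse in turn. Its antisense transcript Pax6os1 overlaps it on the opposite strand and was also lower on Mixed (-0.50, adjusted p = 0.00478), with -0.26 on C57 (adjusted p = 0.139). The strand setting of the counting is not given in the sources used here, so reads of the pair may be mixed. Pax6os1 stood at 4.94 to 14.6 TPM over the 22 mice, well under Pax6.

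Nkx2-2, a homeodomain protein that holds islet cells to their lineage, was at 141, 128, 117, 120.3 and 120.1 TPM in C57 WT and from 90.3 to 117 (median 102) in C57 Het. The groups did not overlap, and the log2 difference was -0.29 (SE 0.08, adjusted p = 0.00857, exact permutation p = 0.00433). In Mixed WT it was 117, 109, 102, 104 and 107 TPM, and in Mixed Het from 86.1 to 125 (median 94.55), with a log2 difference of -0.14 (SE 0.08, adjusted p = 0.193). Mixed Het mouse 1 stood alone at 125 TPM, and without it the Mixed difference was -0.21 with an adjusted p of 0.0253. The other 21 of the 22 fits that left out 1 mouse gave no call there. With all mice and median-of-ratios scaling the Mixed difference was -0.27 (adjusted p = 0.004045), and it also passed with the other 2 rescalings (-0.27, adjusted p = 0.00543, and -0.26, adjusted p = 0.00665). Its C57 difference was -0.26 and no longer passed once an acinar marker score was added to the model (adjusted p = 0.0877).

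Rfx6, a winged-helix factor of endocrine differentiation, was at 185, 110.5, 119, 158 and 104 TPM in C57 WT and from 92.1 to 128 (median 101.5) in C57 Het. On Mixed, WT mice were at 125, 119, 106, 143 and 109 TPM, and in Mixed Het from 78.0 to 119 (median 89.9). The ranges overlapped on both backgrounds, on C57 because 3 of the WT mice lay among the Het mice. The log2 difference was -0.34 (SE 0.13, adjusted p = 0.0472, exact permutation p = 0.0606) on C57 and -0.38 (SE 0.13, adjusted p = 0.0237, exact permutation p = 0.0108) on Mixed. The C57 call was lost in 13 of the 22 fits that left out 1 mouse, and without C57 WT mouse 1, the highest of all, the value was -0.22 (adjusted p = 0.177). The Mixed call was lost without Mixed WT mouse 4 (-0.32, adjusted p = 0.0774) or Mixed Het mouse 2 (-0.34, adjusted p = 0.0561). With the acinar score as a covariate both calls were lost, at -0.25 (adjusted p = 0.291) on C57 and -0.32 (adjusted p = 0.115) on Mixed. The summed TPM of the 12 acinar markers, enzymes of the exocrine pancreas, ranged over 237 to 438.5 in C57 WT, 306 to 1826 in C57 Het, 199 to 952.5 in Mixed WT and 716.5 to 1334 in Mixed Het. Of the 12, 11 were called higher on C57 and 4 on Mixed, with median log2 differences of 1.22 and 0.91.

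Isl1, a LIM-homeodomain protein that acts with the cofactor Ldb1, was at 181, 142.5, 148, 158 and 116 TPM in C57 WT and from 115 to 159 (median 131.5) in C57 Het. In Mixed WT it was 127, 148.5, 129.6, 151 and 115 TPM, and in Mixed Het from 103 to 161 (median 115.5). Het and WT mice overlapped broadly, and the log2 differences were -0.17 (SE 0.12, adjusted p = 0.257) on C57 and -0.14 (SE 0.12, adjusted p = 0.342) on Mixed. The 95% confidence intervals ran from -0.41 to 0.07 and from -0.38 to 0.10. After median-of-ratios scaling both differences passed, at -0.29 (adjusted p = 0.0161) and -0.28 (adjusted p = 0.0185).

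Neurod1 was at 252, 201.5, 233, 242 and 207 TPM in C57 WT and from 157 to 261 (median 223) in C57 Het. The Mixed WT values were 279.7, 243, 205, 237.5 and 258 TPM, and in Mixed Het from 169 to 257 (median 208). The differences of -0.07 (SE 0.12, adjusted p = 0.692) on C57 and -0.26 (SE 0.12, adjusted p = 0.081) on Mixed did not pass. Without Mixed Het mouse 1, the highest of its group, the Mixed difference was -0.32 (adjusted p = 0.0282), and it was -0.39 (adjusted p = 0.00147) after median-of-ratios scaling. Without Mixed WT mouse 3 it was -0.32 (adjusted p = 0.0443), and without C57 Het mouse 3, which enters only the shared spread, -0.26 (adjusted p = 0.0432). In the other 19 of the 22 fits that left out 1 mouse the Mixed difference did not pass.

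Foxa2, a forkhead protein that opens chromatin for other factors, went the other way. It was at 57.1, 47.1, 30.1, 30.4 and 71.2 TPM in Mixed WT and from 67.2 to 82.8 (median 70.8) in Mixed Het. Of the 5 Mixed WT mice only the highest reached the Het range. The log2 difference was 0.68 (SE 0.16, adjusted p = 0.00212, exact permutation p = 0.00866). The C57 WT mice were at 70.4, 78.6, 94.9, 75.1 and 66.4 TPM, and in C57 Het from 73.5 to 108 (median 85.6), a difference of 0.17 (SE 0.16, adjusted p = 0.44). Foxa2 varied more among Mixed WT mice than in the other groups, with an SD of 0.54 on the log2 scale against 0.11 to 0.19. The Mixed WT values were also the low ones between backgrounds: Mixed WT stood at 61.3% of C57 WT, with a log2 difference of -0.76 (SE 0.17, adjusted p = 0.00582). The same Mixed WT mice enter both comparisons, so these 2 differences are not independent. In the fit on the 10 WT mice alone the background difference no longer passed (adjusted p = 0.0747), and its exact permutation p was 0.0238 before adjustment.

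Hnf4a was at 15.8, 18, 15, 13.6 and 8.97 TPM in C57 WT and from 13.45 to 17.2 (median 15) in C57 Het. In Mixed WT it was 13.3, 15.9, 13.6, 14.7 and 11.3 TPM, and in Mixed Het from 13.45 to 20.7 (median 15.5). The groups overlapped, and the differences of 0.13 (SE 0.13, adjusted p = 0.476) and 0.19 (SE 0.13, adjusted p = 0.266) did not pass. The 95% confidence intervals ran from -0.15 to 0.40 on C57 and from -0.09 to 0.46 on Mixed. The C57 value was -0.02 without C57 WT mouse 5, whose 8.97 TPM was the lowest Hnf4a value of the 22 mice.

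Whether the genotype difference itself depended on the background was tested as an interaction. It was called by limma for 0 of the 9 core factors, against 7.36% of all genes tested, and 1 of the 9 had an unadjusted p under 0.05. That gene was Foxa2, with a difference between the backgrounds of 0.51 (SE 0.23, unadjusted p = 0.0385, adjusted p = 0.167), which passed without Mixed WT mouse 5 (0.68, adjusted p = 0.0357). For Nkx6-1 it was -0.26 (SE 0.13, adjusted p = 0.199) and for Pax6 -0.20 (SE 0.11, adjusted p = 0.253), which passed with sample weights (-0.31, adjusted p = 0.0224). The calls for Pdx1 and Nkx6-1 on Mixed and for Nkx2-2 on C57 are therefore not shown to differ between the backgrounds.

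Between backgrounds, 1 of the 9 was called in WT islets (Foxa2) against 11.3% of all genes, and 1 in Het islets (Nkx6-1) against 20.5%. Both were lower on Mixed, the direction of 4.99% and 7.14% of all genes. Nkx2-2 was lower in each Mixed WT mouse than in each C57 WT mouse, an order held by 3.21% of genes, but its difference of -0.22 (SE 0.09, adjusted p = 0.114) did not pass as deposited. After median-of-ratios scaling it was -0.23 with an adjusted p of 0.0401. The Nkx6-1 difference between Het groups lost its call in 7 of the 22 fits that left out 1 mouse, with a highest adjusted p of 0.0859 without Mixed Het mouse 5. The other 6 factors, Pdx1, Neurod1, Isl1, Pax6, Hnf4a and Rfx6, passed in neither background comparison, with differences from -0.18 to 0.16.

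Ratios within a library do not depend on its total. The mean log2 TPM of the beta cell factors Pdx1 and Nkx6-1 minus that of the 6 islet-wide factors was 1.29 ± 0.14 (SD, n = 5) in Mixed WT, from 1.09 to 1.44, and 0.92 ± 0.18 (n = 6) in Mixed Het, from 0.63 to 1.07. These groups did not overlap. The 6 factors include Foxa2, which was called higher in Mixed Het. Taken singly on Mixed, the ratios of Pdx1 and of Nkx6-1 to these factors were free of overlap only for Foxa2. The balance without Foxa2 was not computed. On C57 the balance with all 6 was 1.03 ± 0.22 in WT and 0.93 ± 0.21 in Het, and the ranges overlapped. Of the 36 pairs of core factors, the ratios of 12 did not overlap between WT and Het on Mixed, and 1 on C57. Most of the 12 hold Foxa2 or Hnf4a, and no share over pairs of other genes was computed. Whether such counts are particular to the core factors was therefore not tested. The pairs given here were chosen after their values were seen. The log2 ratio of Pax6 to Foxa2 ran from 0.36 to 1.82 in Mixed WT and from -0.14 to -0.01 in Mixed Het, and on C57, with overlap, from -0.12 to 0.67 in WT and from -0.65 to 0.05 in Het. That of Pdx1 to Foxa2 ran from 1.36 to 2.07 in Mixed WT and from 0.05 to 0.76 in Mixed Het, and on C57 from 0.65 to 1.03 in WT and from 0.14 to 0.43 in Het. This was the 1 pair without overlap on C57, while the ranges of each of its genes overlapped. The log2 ratio of Nkx2-2 to Pax6, 2 islet-wide factors, ran from -0.05 to 0.22 in Mixed WT and from 0.34 to 0.63 in Mixed Het, and on C57, with overlap, from 0.33 to 0.59 in WT and from 0.23 to 0.76 in Het. These ratios are descriptions and carry no test.

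**Figure D3:**
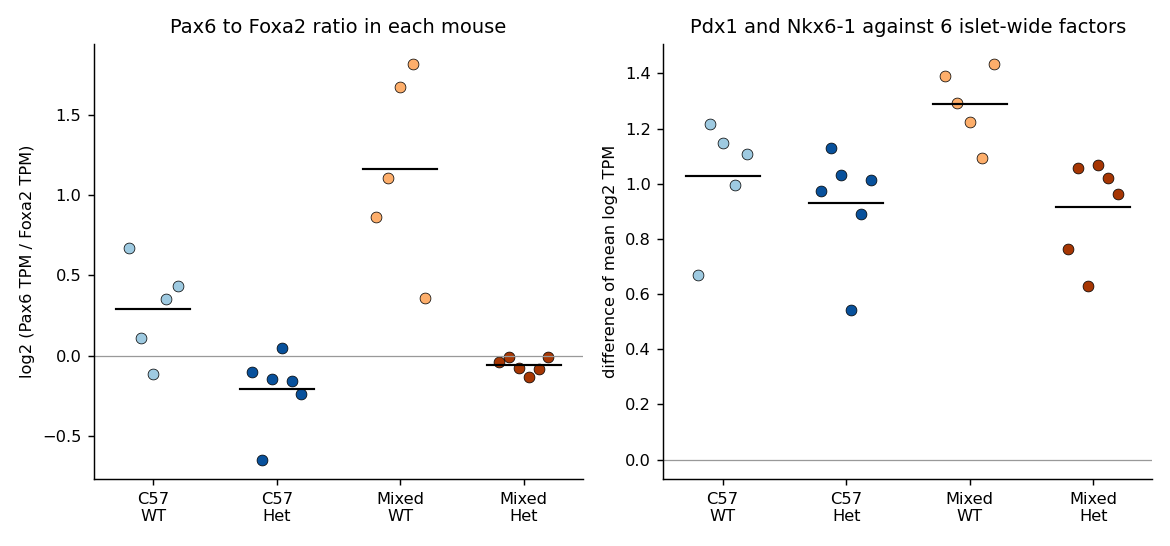
Points are single mice and bars are group means of the log2 ratio of Pax6 to Foxa2 TPM (left) and of the mean log2 TPM of Pdx1 and Nkx6-1 minus that of 6 islet-wide factors (right). In Mixed, WT and Het mice do not overlap in either panel, and the Mixed Het ratios of Pax6 to Foxa2 lie within -0.14 to -0.01. The 6 factors on the right include Foxa2, which was called higher in Mixed Het.

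Some mice were at the top or bottom of their group for several core factors at once. Mixed Het mouse 1 was the highest of its group for 7 of the 9 and also had the lowest insulin share of all 22 mice, 21.5% of TPM. C57 WT mouse 1 was the highest of its group for 5 of the 9, with the lowest insulin share of that group (34.6%). C57 Het mouse 3 was the lowest of its group for 6 of the 9, and C57 WT mouse 5 and Mixed WT mouse 3 for 5 of the 9. The size factor of median-of-ratios scaling, taken over all genes, was highest of its group in Mixed Het mouse 1 (1.181) and C57 WT mouse 1 (1.032). It was lowest of its group in C57 Het mouse 3 (0.918), C57 WT mouse 5 (0.8497) and Mixed WT mouse 3 (0.8872). Whether the core factors moved apart from all genes in these mice was not tested. Without the 4 mice that limma's sample weights put under 0.5 (C57 WT 1 and 5, Mixed WT 4, Mixed Het 1), 3 of the 9 were called on C57 and 7 on Mixed. Of all 16749 genes tested, that fit called 4222 on C57 and 6994 on Mixed, against 6361 and 7393 with all mice. Pdx1 then passed on C57 (-0.53, adjusted p = 0.0199) and Rfx6 did not (-0.29, adjusted p = 0.055).

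Other islet transcription factors were measured beside the core. Of 15 other islet factors that passed the filter, 4 were higher and 4 lower on C57, and 3 higher and 8 lower on Mixed, with median log2 differences of -0.04 and -0.26. The median size of the difference was 0.32 on C57 and 0.29 on Mixed, beside 0.20 and 0.38 for the 9 core factors. After median-of-ratios scaling, 3 of the 15 were higher and 5 lower on C57, and 2 higher and 10 lower on Mixed. Mafa itself, whose TPM sums both alleles, stood at 26.5% of WT in C57 Het and at 25.4% in Mixed Het (log2 differences -1.91, adjusted p = 1.14e-07, and -1.98, adjusted p = 3.44e-08). Mlxipl, the carbohydrate-response factor ChREBP, differed by -1.85 (adjusted p = 1.6e-08) and -2.30 (adjusted p = 3.41e-10). The homeodomain gene Prox1 was higher by 1.13 and 0.76 (adjusted p = 1.43e-05 and 0.000503), and the ETS gene Etv1 by 1.04 and 1.42 (adjusted p = 2.53e-05 and 2.24e-07). The largest size of a called difference among the core factors was 0.68, for Foxa2. Insm1 changed sign on C57 under each of the 3 rescalings, and the called genes named here kept theirs.

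Of 7 factors of alpha and delta cells, 6 were higher on C57 and 7 on Mixed, with medians of 0.91 and 1.40. Irx1, an alpha cell homeodomain gene, was higher by 0.99 on C57 (adjusted p = 0.00134) and by 2.23 on Mixed (adjusted p = 8.08e-08). Irx2 was higher by 0.92 (adjusted p = 0.00198) and 1.98 (adjusted p = 2.78e-07), and Hhex, which marks delta cells, by 0.91 (adjusted p = 0.00105) and 1.40 (adjusted p = 6.58e-06). Of the islet-wide core factors, which alpha and delta cells also express, none was called higher apart from Foxa2 on Mixed. Of 11 progenitor and exocrine factors, 7 passed the filter, with 3 higher and 1 lower on C57 and 5 higher and 1 lower on Mixed. Among them Gata6 was higher by 0.89 and 0.97 (adjusted p = 0.000138 and 2.67e-05), and Neurog3, the trigger of endocrine differentiation, by 0.59 and 1.42 (adjusted p = 0.0193 and 5.62e-06). Sox9, a duct and progenitor factor, was higher by 0.59 and 1.08 (adjusted p = 0.0263 and 0.000227), while Hes1, a Notch target, differed by -0.86 on C57 (adjusted p = 0.00205).

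**Figure D4:**
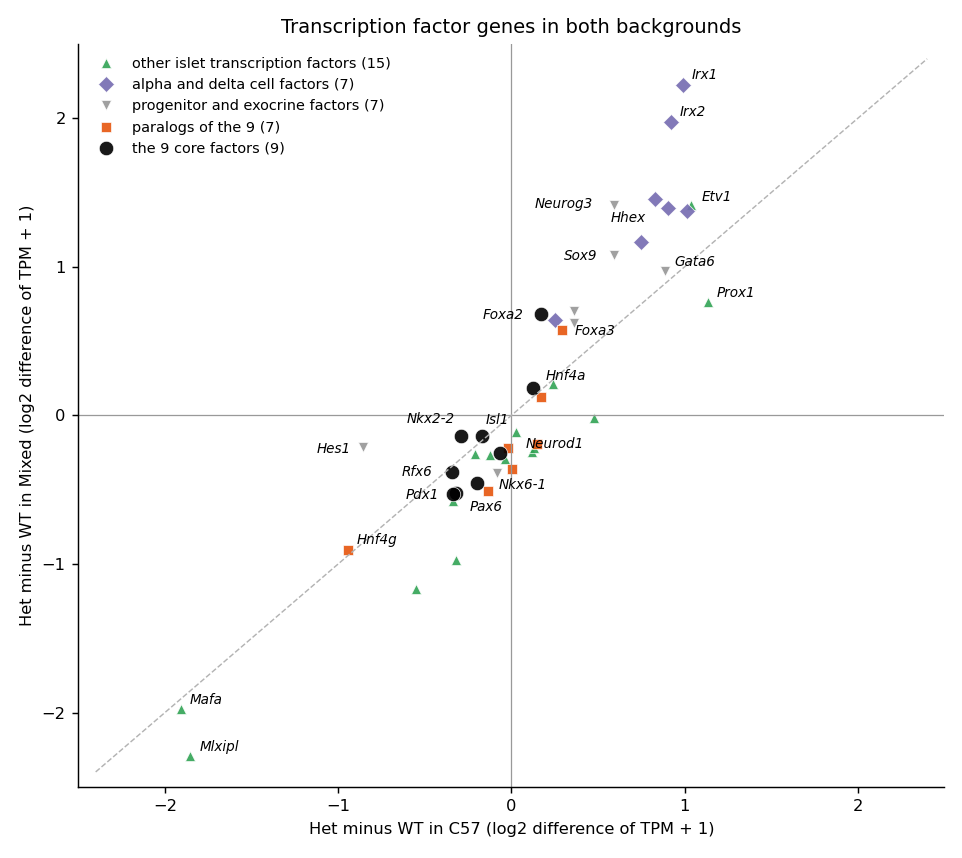
Each mark is 1 transcription factor gene, placed by its log2 difference of TPM + 1, Het minus WT, on C57 (x axis) and Mixed (y axis), with a dashed line of equal difference. The 9 core factors (black circles) lie between -0.53 and 0.68, while Mafa and Mlxipl lie at the lower left and Irx1 and Irx2 at the upper right.

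Paralogs, genes of the same families, could stand in for a core factor. Of 15 listed, 7 passed the filter, of which 1 was lower on C57, and 3 were lower and 1 higher on Mixed. After median-of-ratios scaling, 1 was lower on C57, and 5 were lower and 1 higher on Mixed. Hnf4g, the close relative of Hnf4a, had 5.54 TPM (SD 1.204) in C57 WT islets, 2.38 ± 0.472 in C57 Het, 5.35 ± 0.695 in Mixed WT and 2.41 ± 0.458 in Mixed Het. All 6 Het mice lay below all 5 WT mice on both backgrounds, with log2 differences of -0.94 (adjusted p = 9.98e-06) and -0.90 (adjusted p = 7.61e-06). Foxa3, a relative of Foxa2, was at 11.8 ± 2.26 TPM in C57 WT, 14.6 ± 1.85 in C57 Het, 10.4 ± 2.98 in Mixed WT and 15.5 ± 2.28 in Mixed Het. Its difference was 0.58 on Mixed (adjusted p = 0.00641) and 0.29 on C57 (adjusted p = 0.157). Rfx5, a relative of Rfx6, differed by -0.36 on Mixed (adjusted p = 0.0221), and its C57 value changed sign under each of the 3 rescalings.

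Cofactors that these proteins work with were tested as a list of 15. On C57, 4 were higher and 2 lower, and on Mixed 2 were higher and 3 lower. Of all genes tested, 26.4% were higher and 11.6% lower on C57, and 30.7% and 13.5% on Mixed, so the C57 counts were near the background. After median-of-ratios scaling, 3 cofactors were higher and 4 lower on C57, and 1 higher and 6 lower on Mixed. Ldb1, the partner of Isl1, was lower on both (-0.57, adjusted p = 0.000696, and -0.46, adjusted p = 0.00327), unlike Isl1 itself as deposited. Tle3, a corepressor that works with Nkx2-2 and Nkx6-1, differed by -0.42 on C57 (adjusted p = 0.00277) and by -0.99 on Mixed (adjusted p = 1.29e-07). The DNA methyltransferase Dnmt3a differed by -0.62 on Mixed (adjusted p = 0.00268).

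Beta cell genes known as targets of the core factors formed a list of 14 in the table. On C57, 2 were higher and 3 lower, and on Mixed 1 was higher and 8 lower, with medians of -0.11 and -0.52. Glp1r, the receptor for the incretin hormone, differed by -0.89 on C57 (adjusted p = 4.61e-05) and -2.24 on Mixed (adjusted p = 1.07e-10). Ucn3, a peptide of mature beta cells, differed by -1.50 on Mixed (adjusted p = 1.08e-07) and -0.32 on C57 (adjusted p = 0.0952). Pcsk1, which processes proinsulin, was higher on both (1.33, adjusted p = 4.37e-07, and 1.05, adjusted p = 4.09e-06). After median-of-ratios scaling the list had 1 higher and 5 lower on C57, and 1 higher and 9 lower on Mixed, and Slc2a2 and Ero1b, not called on C57 as deposited, changed sign there.

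Genes near or across the core factors were checked, because the counting may share reads between them. The GENCODE M21 annotation, which is on another build and was used for names and strands only, has an opposite-strand gene over Pdx1 (Plut, 15.9 to 52.0 TPM), over Nkx2-2 (6430503K07Rik, 7.69 to 24.6 TPM, and Nkx2-2os, at most 0.795 TPM), over Pax6 (Pax6os1) and over Hnf4a (Hnf4aos, at most 0.135 TPM). Cerkl overlaps Neurod1 on the same strand (11.3 to 25.0 TPM), and the lincRNA Gm26755, which has no value here, overlaps it on the opposite strand. The lincRNA Gm27033 lies within 10 kb of Pdx1 on the same strand, at 36.6 to 105.6 TPM. The lincRNA 9030622O22Rik, within 10 kb of Foxa2, was higher in Het islets on both backgrounds (0.38, adjusted p = 0.0209, and 0.44, adjusted p = 0.00765). No overlapping gene was listed for Nkx6-1, Isl1, Rfx6 or Foxa2.

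The genes whose pattern over the 22 mice lay closest to each called core factor were found among 9893 genes, by the root mean square difference of log2(TPM + 1) after centring each gene on its own mean. For Pax6, whose own deviation from its mean was 0.24, these were Bbs2 (0.08) and Cc2d1b (0.09). For Rfx6 (own deviation 0.29) they were Gigyf1 (0.09) and Rbak (0.10), and for Nkx6-1 (0.23) Vegfb (0.11) and Angel2 (0.15). For Nkx2-2 (0.18) they were Prpf4 (0.11) and Maz (0.11), and for Pdx1 (0.33) Kpna2 (0.19) and Clstn1 (0.19). Foxa2, with the largest deviation of its own (0.44), was closest to Ctu1 (0.20) and Map10 (0.21). None of the 9 core factors could be named by this rule, which left members out.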

How the data were processed

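Islets of 22 mice were profiled by poly(A) RNA sequencing, with paired reads of 150 bases per the labels' protocols. The authors deposited 1 table of TPM, with 57010 rows and columns that each sum to 1000000, per the file headers and values. The submitters' processing notes name STAR 2.7.10b, MultiQC 1.7 and mm39. The counting tool, annotation and strand setting are not given in the sources used here. TPM keeps no depth, so depth is unknown and no counting interval was given. Where 147 symbols had several rows, the row with the highest mean was kept. Genes that reached 1 TPM in 5 or more libraries were tested as log2(TPM + 1), which understates changes of low genes, with limma 3.58.1 in R 4.3.3 (4 group means, eBayes with trend, adjusted p under 0.05). Single genes also had two-sided exact permutation tests over mice. Scripts were tested on simulated data. The members and lists were chosen with earlier results of these data known. Of each list, up to 3 genes with the smallest adjusted p under 0.05 per genotype contrast were named, with any whose interaction passed. For each called core factor the 2 genes nearest to it in pattern were named too. Genes overlapping or near the core factors were named after their values were seen, as was Ero1b. One cofactor that the rule would name is not reported here. Alternatives are listed with their effects below.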

Additional observations from a re-analysis of the deposited data

Results flagged for a closer look

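Of 40 groups of values tested for a mouse set apart from its group, 3 held one, where chance gives about 1 in 20. The count is near what that rate gives. Pdx1 was 145.1 TPM in C57 Het mouse 2, with a gap to the next mouse of 0.645 of the group's range. In Mixed Het mouse 1, Nkx2-2 was 124.7 TPM (gap 0.701) and Rfx6 was 119.1 TPM (gap 0.639). That mouse also had the lowest insulin share.

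Genotype differences that depended on the background by the limma interaction were found in the lists around the core factors. Among transcription factors, the difference was larger on Mixed for Irx1 by 1.24 (adjusted p = 0.0211) and for Irx2 by 1.06 (adjusted p = 0.0366). Their Mixed WT means stood at 42.3% and 41.6% of C57 WT, and their Mixed Het means at 113% and 97.6% of C57 Het. For the corepressor Tle3 the interaction was -0.58 (adjusted p = 0.0205). Among the target genes, Glp1r differed by -1.35 (adjusted p = 0.000512), Ucn3 by -1.18 (adjusted p = 0.00342) and the glucose transporter gene Slc2a2 by -1.01 (adjusted p = 0.0027). The pyruvate carboxylase gene Pcx differed by -0.83 (adjusted p = 0.00301) and the zinc transporter gene Slc30a8 by -0.79 (adjusted p = 0.0246).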

How the results depend on the processing

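The alternatives were a pseudocount of 0.1, no filter or a mean TPM of at least 5, 3 rescalings (median-of-ratios, quantile, and a total without the 13 genes over 1% of any sample), fits on the contrast's samples alone, an acinar covariate, sample weights, eBayes without trend, exact permutation tests, leaving out each mouse, and, added after seeing the data, leaving out 4 mice of low weight. Over single core factors, 473 values kept direction and call, 29 gained and 12 lost the call, and 8 changed sign, mice left out in turn aside. The count called on C57 was 6 with median-of-ratios scaling, 5 with quantile normalization, 6 with the reduced total and 1 with the acinar covariate. On Mixed the 3 rescalings gave 8 each. Of all genes, quantile normalization called 6556 on C57 and 7555 on Mixed, and the reduced total 6376 and 7147. Between WT groups the 3 rescalings gave 2, and the contrast's samples alone and the permutation test gave 0. With 5 against 5 mice the smallest exact permutation p is 0.00794. Adjusted over all genes, that passes only if very many genes reach it, so the permutation result cannot show that a difference is absent. Between Het groups no filter and the permutation test gave 0, the contrast's samples alone 2 and sample weights 3. The interaction count was 1 with sample weights. For all genes, sample weights called 2628 interactions and 6568 differences between Het groups, against 1233 and 3430, the acinar covariate 3391 on C57 against 6361, and no filter 714 interactions. The samples of the contrast alone called 831 between WT groups and the permutation test 0, against 1891, and leaving out the 4 mice gave 4222 on C57, 480 interactions and 915 between WT groups. Signs changed for Hnf4a between Het groups (-0.0186 with the reduced total, -0.0219 with weights, -0.0409 without the 4 mice), Isl1 in the interaction (-0.0017 with weights), Nkx6-1 between WT groups (0.0366 with weights, 0.0202 without the 4 mice), Pdx1 between Het groups (0.0187 with weights) and Hnf4a on C57 (-0.0111 without the 4 mice). Leaving out 1 mouse, the count called ran from 2 to 4 on C57, 4 to 7 on Mixed, 0 to 1 for the interaction, 1 to 1 between WT and 0 to 1 between Het groups. It moved values across 0 for Neurod1 on C57 (-0.1206 to 0.025), Hnf4a on C57 (-0.019 to 0.2142), in the interaction (-0.0278 to 0.2054), between WT (-0.1704 to 0.0628) and between Het groups (-0.0409 to 0.0766), Isl1 in the interaction (-0.0519 to 0.1169), Rfx6 in the interaction (-0.1622 to 0.0442), Nkx6-1 between WT groups (-0.0721 to 0.0669) and Pdx1 between Het groups (-0.0783 to 0.0692). The difference in balance between the beta cell and islet-wide factors ran from -0.19 to -0.02 on C57 and from -0.42 to -0.31 on Mixed, and was -0.06 and -0.28 from summed TPM. The cause of these changes was not tested. No paired analysis was possible because the labels give no replicate numbers shared between groups.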
